A study of Rattus norvegicus with 12 samples.

Results

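The genes described here code for enzymes that oxidise drugs and steroids, join them to water-soluble groups, or oxidise aldehydes. They were chosen by symbol alone as the rows of the count table in the cytochrome P450 families Cyp1 to Cyp4, the glutathione transferases (Gsta, Gstm, Gsto, Gstp, Gstt and Mgst), the sulfotransferases (Sult), the glucuronosyltransferases Ugt1 and Ugt2, and the aldehyde dehydrogenases (Aldh). The rule found 115 of 24660 rows: 54 Cyp, 22 glutathione transferase, 12 Sult, 8 Ugt and 19 Aldh rows. RNA was sequenced from NRK-52E cells, a line of rat kidney tubular epithelial cells labelled as wild type, to compare vesicles made in 2 ways as a treatment of a fibrosis-like state. TGF-beta1 + 3D-EV cells and TGF-beta1 + 2D-EV cells were given TGF-beta1 at 10 µg/ml as labelled, a unit that could not be checked, for 24 h and then extracellular vesicles (EVs) labelled 3D-EVs or, made by the conventional method, 2D-EVs at 500000000 particles/ml for 48 h. TGF-beta1 cells received the cytokine, which drives fibrosis, at the same labelled 10 µg/ml for 24 h, without vesicles. Control cells carry no named agent in the labels. All 4 groups held 3 libraries and grew in medium with serum. The sources used here give neither the cells that made the vesicles nor the hours at which TGF-beta1 and control cells were collected, so vesicles and time in culture cannot be told apart.

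Cytochrome P450 enzymes insert oxygen into drugs, steroids and fatty acids, a step called phase I. In phase II, glutathione transferases, sulfotransferases and glucuronosyltransferases attach glutathione, sulfate or glucuronic acid to such products, and efflux pumps carry them out of the cell. Aldehyde dehydrogenases oxidise aldehydes that come from lipid peroxides, amino acids and retinol, and the proximal tubule of the kidney is known for high activity of many of these enzymes.

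The libraries held 32888125 to 39754319 counts, and the 115 genes took 0.237% to 0.247% of them in TGF-beta1 + 3D-EV cells, 0.237% to 0.244% in TGF-beta1 + 2D-EV cells, 0.230% to 0.236% in TGF-beta1 cells and 0.273% to 0.280% in control cells. Levels are given as CPM, counts scaled to library size with TMM factors and not corrected for gene length. Of 15 tubular markers in the table, Epcam, Pax2 and Hnf4a were at 0 in every library, Krt18 had 0 to 5 counts and Slc34a1 0 to 3, while Krt8 stood at 1007 to 1252 CPM, Ggt1 at 159 to 320 CPM and Aqp1 at 13.6 to 23.6 CPM. The summed level of the tubular list was 1462 to 1522 CPM in TGF-beta1 + 3D-EV cells, 1476 to 1514 in TGF-beta1 + 2D-EV cells, 1497 to 1561 in TGF-beta1 cells and 1190 to 1220 in control cells. Of 8 immune markers, 5 (Ptprc, C1qa, C1qb, Itgam and Tyrobp) were at 0 in all 12 libraries, while Cd14 stood at 177 to 251 CPM. The immune list summed to 247 to 249.7 CPM in TGF-beta1 + 3D-EV cells, 221 to 234 in TGF-beta1 + 2D-EV cells, 247 to 254 in TGF-beta1 cells and 181 to 196 in control cells. The sums of 8 fibroblast and pericyte markers were 724 to 763, 702 to 714, 699 to 718 and 745 to 791 CPM in the same order of groups, with Dcn at 0 to 2 counts and Mfap5 at 529 to 599 CPM. Those of 5 endothelial markers were 14.9 to 17.0, 15.4 to 16.6, 14.8 to 15.9 and 11.96 to 12.96 CPM, with Pecam1 at 0 to 11 counts. Those of 6 hepatocyte markers were 77.4 to 79.0, 75.8 to 76.8, 74.0 to 80.1 and 74.0 to 78.3 CPM, with Alb at 0 to 10 counts and Tf at 67.4 to 74.7 CPM. The labels do not say that libraries of a group came from separate cultures, so a p-value here reflects the spread among these libraries alone. In RNA of a whole culture, fewer cells that express a gene and less RNA per cell cannot be told apart.

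No count fell on 29 of the 115 genes, 32 had counts too low for the filter (at most 13 in a library), and 54 were tested. The tested genes were 15 of 54 Cyp, 17 of 22 glutathione transferase, 7 of 12 Sult, 1 of 8 Ugt and 14 of 19 Aldh genes. Several P450 genes of rat liver, though not Cyp2c11, were at or near 0: Cyp2c12, Cyp2a1 and Cyp4a1 had no count in any library, Cyp2e1 had at most 2 and Cyp1a2 at most 3. Sult1e1, the oestrogen sulfotransferase, and Ugt2b7 also had no count. By counting error alone, a count of 0 allows up to 3 counts, or 0.0764 to 0.0916 CPM, in a library. That floor leaves out the wider spread between libraries of a group. Gsta2 and Gsta5 stayed at 3 and 4 counts or fewer, and Gstt3, with at most 9, was the highest glutathione transferase among the untested. Several family members sit side by side and resemble each other in sequence, so reads may be divided wrongly among the Gstm, the Gsta, the Gstt, the Cyp2c and the Cyp4f genes.

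TGF-beta1 cells had lower levels than control cells of 19 of the 54 tested genes and higher levels of 5, by edgeR's quasi-likelihood test at adjusted p below 0.05. These 24 genes were 44.4% of those tested, against 22% of all 14184 genes tested in the table. The lower ones were 35.2% of the members, against 10.2% of all genes, and the higher ones 9.26%, against 11.8%. The median log2 change was -0.13 over the members and -0.005 over all tested genes. By family, 8 Aldh, 7 glutathione transferase, 2 Cyp, 1 Sult and 1 Ugt gene fell, and 2 Aldh and 1 each of Cyp, glutathione transferase and Sult rose. The libraries of TGF-beta1 and control cells did not overlap for 27 members, or 50% of them, against 38% of all genes, and 27 had an unadjusted p under 0.05, against 33% of all genes. The count of 5 rises was smaller in every fit that left out 1 of the 6 libraries: it was 3 without control library 1 or 2 or TGF-beta1 library 2, 2 without control library 3 or TGF-beta1 library 3, and 4 without TGF-beta1 library 1. The count of 19 falls was 16 to 18 in those fits. Beside these falls, 2 of 8 tested tubular markers were higher and 1 was lower in TGF-beta1 cells. In the same comparison 1 of 3 immune and 1 of 2 endothelial markers tested were higher, 1 of 4 fibroblast and pericyte markers was lower, and 0 of 3 hepatocyte markers passed in either direction. The part of these markers in the result was not tested.

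**Figure D1:**
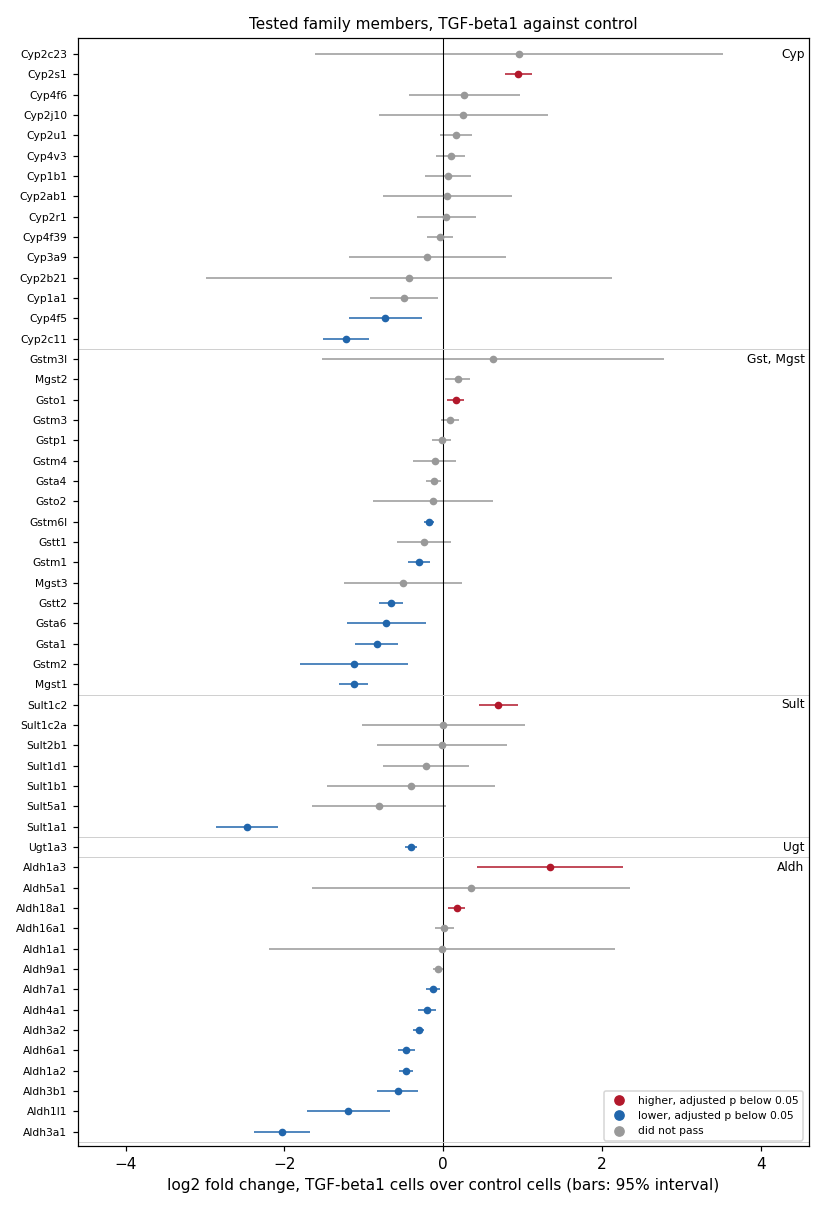
Log2 fold change of TGF-beta1 over control cells for the 54 tested genes, by family, with 95% intervals; red marks the 5 higher and blue the 19 lower genes at adjusted p below 0.05. The falls reach -2.47 (Sult1a1) and lie mostly among glutathione transferase and Aldh genes, while most Cyp genes lie near 0 or have wide intervals.

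Stretches of promoter are shown for the genes with the smallest p in this comparison that have a single RefSeq start, since these genes carry the differences with the strongest test results between TGF-beta1 and control cells. They come from RefSeq on the build GRCr8, while the counts were made on mRatBN7.2, and each is the 250 bases before the gene's start on its own strand. Sult1a1 lies on the minus strand at chr1:190706113-190706362, Mgst1 on the plus strand at chr4:172760680-172760929, Cyp2s1 on the minus strand at chr1:90453074-90453323 and Aldh1a2 on the plus strand at chr8:80758391-80758640. Capitals mark matches to the letters GCGTG (aryl hydrocarbon receptor core), TGACNNNGC (antioxidant response core) or TGANTCA (AP-1), searched on both strands.
Sult1a1: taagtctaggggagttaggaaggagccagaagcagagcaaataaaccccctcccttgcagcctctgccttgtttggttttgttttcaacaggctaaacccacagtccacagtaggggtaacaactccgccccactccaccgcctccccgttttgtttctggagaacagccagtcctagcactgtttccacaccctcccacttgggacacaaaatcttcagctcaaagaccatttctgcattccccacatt
Mgst1: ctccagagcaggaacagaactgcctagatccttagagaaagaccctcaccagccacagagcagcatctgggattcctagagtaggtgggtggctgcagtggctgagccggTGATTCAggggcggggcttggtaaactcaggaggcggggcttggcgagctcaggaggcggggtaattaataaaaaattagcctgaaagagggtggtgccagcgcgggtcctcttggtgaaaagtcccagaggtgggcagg
Cyp2s1: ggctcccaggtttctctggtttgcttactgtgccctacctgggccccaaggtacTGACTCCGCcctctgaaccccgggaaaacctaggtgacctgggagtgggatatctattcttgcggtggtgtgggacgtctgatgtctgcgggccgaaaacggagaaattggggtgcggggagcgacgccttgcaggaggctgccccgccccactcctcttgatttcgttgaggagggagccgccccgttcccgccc
Aldh1a2: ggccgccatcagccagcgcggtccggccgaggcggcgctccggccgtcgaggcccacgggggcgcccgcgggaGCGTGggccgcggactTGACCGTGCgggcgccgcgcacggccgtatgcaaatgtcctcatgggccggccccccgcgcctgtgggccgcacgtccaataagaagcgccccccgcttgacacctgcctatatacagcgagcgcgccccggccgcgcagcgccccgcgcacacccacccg
The window of Sult1a1, the most strongly lowered gene, held none of the 3 motifs. That of Mgst1 held TGATTCA from 140 to 134 bases before the start, and that of Cyp2s1 held TGACTCCGC from 196 to 188 bases before it. The Aldh1a2 window held GCGTG at 177 to 173 and TGACCGTGC at 161 to 153 bases before the start. Windows of 300 bases around the start (250 before and 50 after) were searched too. GCGTG was present for 6 of 16 lowered members, 1 of 4 raised members and 11 of 24 tested members that did not pass. It was present in 29.7% of all 33469 promoter entries. TGACNNNGC was present for 2 of the 16, 1 of the 4 and 3 of the 24, against 12.1% of all entries. For TGANTCA these were 1, 1 and 2, against 7.33%. A member counted if any of its entries matched, while the share over all was taken by entry. A match describes letters only, and a window without one does not bear on the factor.

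Among the P450 genes, Cyp2s1 rose and Cyp2c11 and Cyp4f5 fell with TGF-beta1, while the other 12 tested genes did not pass. These 3 were 20% of the 15 tested, near the 22% of all genes. The lower ones were 13.3%, against 10.2% of all genes, and the higher one 6.67%, against 11.8%. Cyp2s1, a P450 of epithelia outside the liver, had 31.3, 32.9 and 33.3 CPM in TGF-beta1 + 3D-EV cells, 29.7, 30.8 and 31.5 in TGF-beta1 + 2D-EV cells, 30.9, 30.1 and 35.6 in TGF-beta1 cells and 17.3, 14.7 and 18.1 in control cells. All 9 libraries that received TGF-beta1 lay above all 3 control libraries. Its level in TGF-beta1 cells was 1.93 times that in control cells (log2 0.95, SE 0.08, adjusted p = 9.42e-07). It is the first gene of a Cyp2 run in RefSeq order whose Cyp2b, Cyp2a and Cyp2g members were not tested apart from Cyp2b21, which stayed at 0.458 CPM or less in each library. Cyp2c11, the main male P450 of rat liver, had 4.48, 4.21 and 5.03 CPM with 3D-EVs, 5.16, 4.28 and 4.67 with 2D-EVs, 4.40, 3.40 and 3.38 with TGF-beta1 alone and 9.58, 8.40 and 8.09 in control cells. No library of a treated group reached the control range. The TGF-beta1 level was 0.429 times the control level (log2 -1.22, SE 0.13, adjusted p = 1.24e-05).

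Cyp4f5, of a subfamily that hydroxylates fatty acids and leukotrienes, had 1.86, 2.05 and 1.96 CPM in TGF-beta1 + 3D-EV cells, 1.60, 1.64 and 1.31 in TGF-beta1 + 2D-EV cells, 1.41, 0.927 and 1.26 in TGF-beta1 cells and 1.90, 1.78 and 2.30 in control cells. The libraries with 3D-EVs lay inside the control range, those with TGF-beta1 alone below it. TGF-beta1 over control gave a log2 change of -0.73 (SE 0.21, adjusted p = 0.0236). Adjusted p ran from 0.0165 to 0.1 over the alternatives and was 0.0962 without control library 3 and 0.1 without TGF-beta1 library 2. Its neighbour Cyp4f39, which in mouse skin hydroxylates very long fatty acids, averaged 14.5 ± 1.12 CPM with 3D-EVs, 14.8 ± 0.753 with 2D-EVs, 13.7 ± 0.717 with TGF-beta1 and 14.1 ± 0.434 in control cells (SD, n = 3 each). Cyp4v3, a fatty acid hydroxylase, averaged 14.2 ± 1.48 CPM in TGF-beta1 cells and 13.3 ± 0.785 in control cells, with adjusted p = 0.5. Neither difference exceeded the spread between libraries. Cyp1a1, the classical target of the aryl hydrocarbon receptor, had 2.13, 2.14 and 2.17 CPM in TGF-beta1 cells and 2.33, 3.01 and 3.72 in control cells and missed the threshold (log2 -0.49, adjusted p = 0.0995). That adjusted p ran from 0.0429 to 0.369 over the alternatives and was 0.0429 without control library 1. Cyp1b1, another target of that receptor, averaged 8.68 ± 1.25 CPM in TGF-beta1 cells and 8.35 ± 1.60 in control cells, with overlapping libraries. Cyp2r1, a vitamin D 25-hydroxylase, and Cyp2u1, a fatty acid hydroxylase, stood at 2.87 ± 0.301 and 8.34 ± 0.191 CPM in TGF-beta1 cells, against 2.79 ± 0.503 and 7.46 ± 0.597 CPM in control cells, and did not pass.

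Among the glutathione transferases, the microsomal enzyme Mgst1, which conjugates glutathione and reduces lipid peroxides at membranes, showed the fall with the smallest p. It had 16.9, 18.2 and 19.3 CPM with 3D-EVs, 19.2, 18.1 and 18.9 with 2D-EVs, 13.2, 14.2 and 16.7 with TGF-beta1 alone and 33.6, 29.2 and 33.7 in control cells. The TGF-beta1 libraries were the lowest, every vesicle library lay above them, and every control library lay above all 9 treated ones. TGF-beta1 cells held 0.457 times the control level (log2 -1.13, SE 0.09, adjusted p = 3.46e-07). The related Mgst2 and Mgst3 did not pass: Mgst2 averaged 34.3 ± 2.84 CPM in TGF-beta1 cells and 30.3 ± 1.71 in control cells (adjusted p = 0.105). Mgst3 had 1.52, 0.590 and 2.17 CPM in TGF-beta1 cells and 2.08, 2.33 and 1.71 in control cells, with TGF-beta1 library 2 far below its group.

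Of the alpha class, which conjugates electrophiles and reduces lipid peroxides, Gsta1 and Gsta6 fell. Gsta1 had 7.51, 8.63 and 7.98 CPM in TGF-beta1 + 3D-EV cells, 8.98, 6.82 and 7.39 in TGF-beta1 + 2D-EV cells, 5.87, 7.19 and 8.08 in TGF-beta1 cells and 13.8, 11.8 and 12.1 in control cells. The treated groups overlapped each other and all lay below control. TGF-beta1 over control gave 0.560 times the level (log2 -0.84, SE 0.13, adjusted p = 0.00023). Its neighbour Gsta6 had 1.48, 1.65 and 1.96 CPM with 3D-EVs, 2.60, 1.70 and 1.43 with 2D-EVs, 1.38, 1.57 and 1.65 with TGF-beta1 and 2.56, 2.86 and 2.16 in control cells, and 1 library with 2D-EVs lay within the control range. Its log2 change with TGF-beta1 was -0.72 (SE 0.23, adjusted p = 0.0374). That call was weak: adjusted p ran from 0.0279 to 0.128 over the alternatives, was 0.063 with a replicate block, and was 0.0895, 0.128, 0.119, 0.0841 and 0.0663 without control library 1 or 2 or TGF-beta1 library 1, 2 or 3. Gsta4, which conjugates the lipid aldehyde 4-hydroxynonenal, lies on another chromosome in RefSeq. It had 54.3, 53.4 and 56.4 CPM with 3D-EVs, 57.0, 55.8 and 52.8 with 2D-EVs, 49.8, 51.5 and 50.1 with TGF-beta1 and 53.6, 56.2 and 54.8 in control cells. The TGF-beta1 libraries lay below those of the other groups without overlap, but against control the test missed the threshold (log2 -0.12, adjusted p = 0.0577; 0.0405 to 0.168 over the alternatives).

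Of the mu class, Gstm6l, Gstm1 and Gstm2 fell, while Gstm3, Gstm4 and Gstm3l did not pass. Gstm6l had 374, 366 and 376 CPM with 3D-EVs, 378, 379 and 368 with 2D-EVs, 364, 363 and 369 with TGF-beta1 and 426, 401 and 415 in control cells. Control lay above every treated library, by a small margin: the TGF-beta1 level was 0.882 times the control level (log2 -0.18, SE 0.03, adjusted p = 0.000406). Gstm1 had 58.1, 57.3 and 61.8 CPM with 3D-EVs, 63.1, 60.4 and 59.7 with 2D-EVs, 51.1, 61.4 and 56.3 with TGF-beta1 and 74.6, 64.9 and 68.5 in control cells. Its groups did not overlap between TGF-beta1 and control, with a log2 change of -0.30 (SE 0.06, adjusted p = 0.00319). Gstm2 was far lower in counts, at 1.73, 1.08 and 1.40 CPM with 3D-EVs, 2.83, 2.01 and 1.01 with 2D-EVs, 0.978, 1.60 and 1.40 with TGF-beta1 and 3.55, 2.60 and 2.55 in control cells. The libraries with 2D-EVs spread from the TGF-beta1 range into the control range. Its log2 change with TGF-beta1 was -1.12 (SE 0.32, adjusted p = 0.0193), and adjusted p was 0.0854 without control library 1 and 0.0826 without TGF-beta1 library 1, within 0.00287 to 0.0854 over the alternatives. Gstm3, Gstm2, Gstm1 and Gstm4 stand side by side on chromosome 2 in RefSeq, and Gstm3 averaged 99.6 ± 4.45 CPM in TGF-beta1 cells and 94.0 ± 3.32 in control cells (adjusted p = 0.324). Gstm3l, a RefSeq synonym of Gstm3 with a row of its own, had 11, 0 and 17 counts with 3D-EVs, 0, 1 and 0 with 2D-EVs, 5, 12 and 13 with TGF-beta1 and 17, 0 and 2 in control cells. Counts of that row jump between 0 and 17 within a group, and its reads cannot be told apart from those of Gstm3.

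Of the theta, omega and pi classes, Gstt2 fell, Gsto1 rose and Gstp1, the pi-class enzyme of many epithelia and tumours, did not pass. Gstt2 had 16.0, 14.9 and 16.0 CPM in TGF-beta1 + 3D-EV cells, 16.4, 15.8 and 15.4 in TGF-beta1 + 2D-EV cells, 13.5, 13.9 and 13.1 in TGF-beta1 cells and 23.4, 19.9 and 20.5 in control cells. The order was the same as for Mgst1, with TGF-beta1 alone lowest, both vesicle groups above it without overlap and control above all. TGF-beta1 cells held 0.635 times the control level (log2 -0.66, SE 0.07, adjusted p = 1.19e-05). Its neighbour Gstt1 averaged 3.68 ± 0.652 CPM in TGF-beta1 cells and 4.34 ± 0.683 in control cells, a difference within the spread (adjusted p = 0.33). Gsto1, which reduces dehydroascorbate and arsenicals, had 63.2, 67.0 and 72.7 CPM with 3D-EVs, 64.1, 61.8 and 63.0 with 2D-EVs, 64.4, 62.5 and 66.5 with TGF-beta1 and 59.9, 58.0 and 55.4 in control cells. All treated libraries exceeded control, and TGF-beta1 over control gave a log2 change of 0.16 (SE 0.05, adjusted p = 0.0359). Adjusted p ran from 0.0221 to 0.138 over the alternatives and was above 0.05 with a replicate block (0.0557), with upper-quartile factors (0.0508), and without control library 2 or 3 or TGF-beta1 library 1 or 3 (0.0781, 0.138, 0.0817 and 0.131). Gstp1 averaged 210.5 ± 18.6 CPM with 3D-EVs, 202 ± 12.2 with 2D-EVs, 202 ± 4.71 with TGF-beta1 and 205 ± 8.54 in control cells (SD, n = 3 each). Its 95% interval for TGF-beta1 over control was -0.14 to 0.10 on the log2 scale.

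Of 7 tested sulfotransferases, 2 passed in opposite directions, Sult1a1 down and Sult1c2 up. They were 28.6% of those tested, against 22% of all genes. Each direction held 14.3%, against 10.2% of all genes lower and 11.8% higher. Sult1a1, which sulfates phenols such as paracetamol, had 1.15, 1.08 and 1.40 CPM in TGF-beta1 + 3D-EV cells, 1.90, 1.64 and 1.56 in TGF-beta1 + 2D-EV cells, 0.949, 0.927 and 1.18 in TGF-beta1 cells and 5.15, 5.52 and 6.38 in control cells. Every treated library was far below every control library, and those with 2D-EVs lay above the others treated. The TGF-beta1 level was 0.180 times the control level (95% interval 0.137 to 0.236; log2 -2.47, SE 0.18, adjusted p = 2.34e-07), the largest fitted fall of the 54 genes. Sult1c2, also a phenol sulfotransferase, had 12.6, 14.2 and 14.2 CPM with 3D-EVs, 14.8, 17.0 and 12.7 with 2D-EVs, 13.7, 14.2 and 12.2 with TGF-beta1 and 7.56, 7.94 and 9.24 in control cells. All 9 treated libraries exceeded the control ones. TGF-beta1 over control gave 1.62 times the level (log2 0.70, SE 0.11, adjusted p = 0.000385). The other 5 tested sulfotransferases, among them the steroid and cholesterol enzyme Sult2b1 at 1.33 ± 0.318 CPM in TGF-beta1 cells and 1.33 ± 0.213 in control cells, did not pass. Summed over the family, the sulfotransferase level was 17.1 to 18.9 CPM in TGF-beta1 cells and 17.0 to 19.8 CPM in control cells, so the sums overlapped. The Cyp sum was higher in TGF-beta1 cells without overlap, at 87.7 to 94.8 CPM, against 77.2 to 84.7 CPM in control cells. Lower without overlap were the sums of glutathione transferases (924 to 928, against 989 to 1052 CPM), Ugt (349 to 369, against 464 to 494 CPM) and Aldh genes (937 to 971, against 1098 to 1123 CPM).

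Ugt1a3 was the 1 glucuronosyltransferase row with enough counts. The Ugt1 isoforms share exons, so this row cannot be assigned to a single isoform. It had 381, 379 and 393 CPM with 3D-EVs, 396, 388 and 371 with 2D-EVs, 349, 358 and 369 with TGF-beta1 and 466, 464 and 494 in control cells. TGF-beta1 libraries were lowest, vesicle libraries lay above them and control libraries above all. TGF-beta1 cells held 0.756 times the control level (log2 -0.40, SE 0.04, adjusted p = 1.19e-06).

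**Figure D2:**
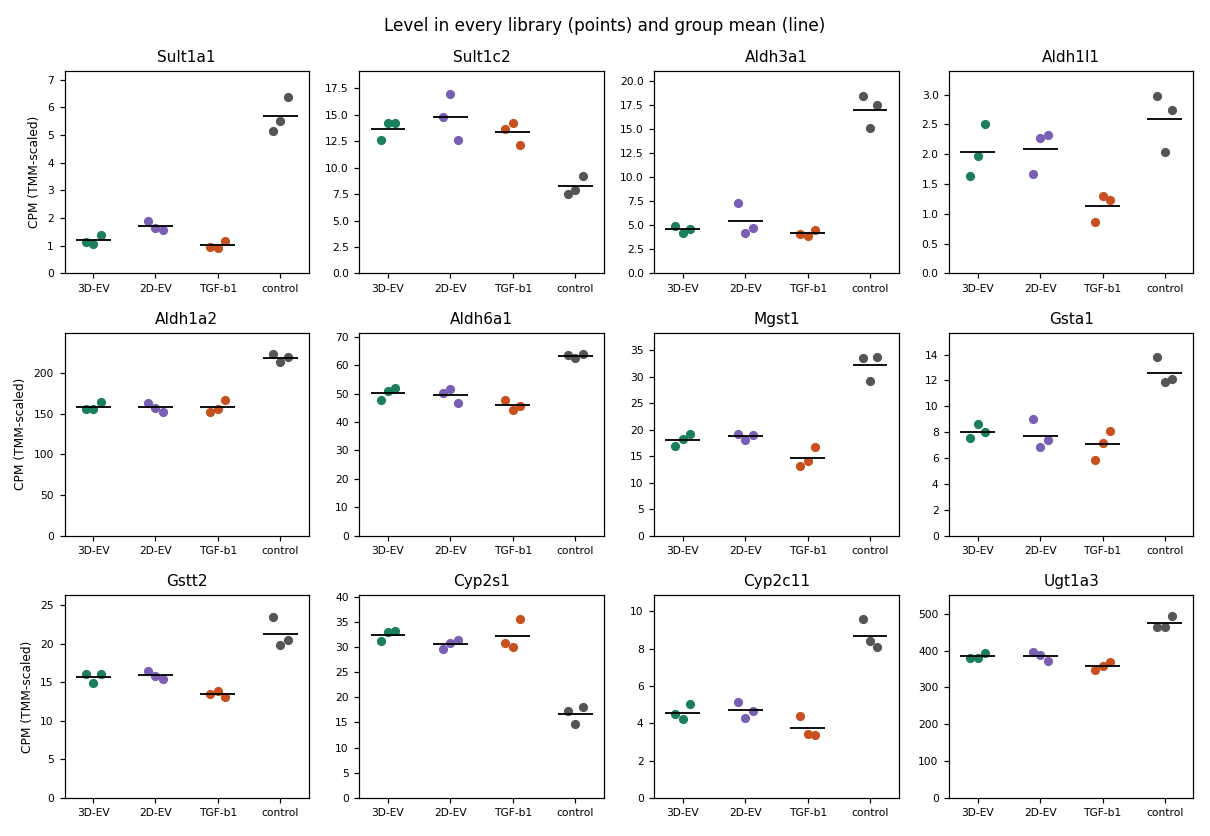
CPM in each library (points) and group mean (line) for 12 members, with TGF-beta1 + 3D-EV, TGF-beta1 + 2D-EV, TGF-beta1 and control cells along each axis; axes start at 0. Control libraries stand apart from the 9 treated ones in 11 panels, and in the panel of Aldh1l1 the vesicle libraries reach into the control range of 2.04 to 2.98 CPM.

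The aldehyde dehydrogenases held 8 of the 19 falls with TGF-beta1, beside 7 in the glutathione transferases. These falls were 57.1% of 14 tested Aldh genes and 41.2% of 17 tested glutathione transferase genes, against 10.2% of all genes. The lowered Aldh genes serve lipid aldehydes, folate, retinal and amino acid breakdown. Aldh3a1, which oxidises aromatic and medium-chain aldehydes and is abundant in the cornea, had 4.94, 4.24 and 4.64 CPM in TGF-beta1 + 3D-EV cells, 7.35, 4.25 and 4.76 in TGF-beta1 + 2D-EV cells, 4.05, 3.91 and 4.53 in TGF-beta1 cells and 18.4, 15.1 and 17.5 in control cells. A single library with 2D-EVs stood above the other treated ones, and all remained below control. The TGF-beta1 level was 0.245 times the control level (95% interval 0.192 to 0.313; log2 -2.03, SE 0.16, adjusted p = 5.81e-07). Its neighbour on chromosome 10, Aldh3a2, oxidises fatty aldehydes and had 163, 169.6 and 167 CPM with 3D-EVs, 165, 161 and 164 with 2D-EVs, 156, 162 and 159.6 with TGF-beta1 and 203, 197 and 192 in control cells. Control lay above every treated library, with 0.807 times its level in TGF-beta1 cells (log2 -0.31, SE 0.03, adjusted p = 5.83e-06). Aldh3b1, an enzyme for aldehydes of membrane lipids, had 7.13, 6.49 and 7.95 CPM with 3D-EVs, 7.93, 8.58 and 6.59 with 2D-EVs, 6.67, 6.66 and 6.98 with TGF-beta1 and 8.73, 11.1 and 10.4 in control cells. All treated libraries lay under the lowest control library, and the log2 change with TGF-beta1 was -0.57 (SE 0.12, adjusted p = 0.00305).

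Aldh1l1, which oxidises formyl-tetrahydrofolate, had 1.63, 1.96 and 2.50 CPM in TGF-beta1 + 3D-EV cells, 1.66, 2.27 and 2.32 in TGF-beta1 + 2D-EV cells, 0.863, 1.29 and 1.24 in TGF-beta1 cells and 2.98, 2.04 and 2.74 in control cells. The TGF-beta1 libraries were below all others, and both vesicle groups overlapped control. TGF-beta1 cells held 0.437 times the control level (log2 -1.19, SE 0.24, adjusted p = 0.00231). The enzymes Aldh1a2 and Aldh1a3 both make retinoic acid from retinal, and they changed in opposite directions. Aldh1a2 had 155, 156 and 165 CPM with 3D-EVs, 163, 157 and 153 with 2D-EVs, 152, 155 and 167 with TGF-beta1 and 223, 214 and 219.8 in control cells. The treated groups were alike in range and all below control, at 0.723 times its level with TGF-beta1 (log2 -0.47, SE 0.04, adjusted p = 1.17e-06). Aldh1a3 was weakly expressed, with 12, 40 and 36 counts with 3D-EVs, 40, 34 and 32 with 2D-EVs, 29, 46 and 47 with TGF-beta1 and 17, 10 and 20 in control cells. TGF-beta1 libraries exceeded control without overlap (log2 1.35, SE 0.43, adjusted p = 0.0357). That call depended on single libraries: adjusted p ran from 0.0125 to 0.13 over the alternatives, was 0.0554 with limma-voom, and was 0.0797, 0.13, 0.0526, 0.107 and 0.101 without control library 1, 2 or 3 or TGF-beta1 library 2 or 3. Aldh1a1, the retinal dehydrogenase of liver, had at most 14 counts in a library.

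Enzymes of amino acid breakdown fell by small amounts. Aldh6a1, of valine and thymine breakdown, had 47.8, 50.9 and 51.8 CPM with 3D-EVs, 50.1, 51.7 and 46.6 with 2D-EVs, 47.7, 44.3 and 45.7 with TGF-beta1 and 63.4, 62.4 and 63.9 in control cells. Control libraries were tightly grouped above all treated ones, and TGF-beta1 cells held 0.725 times their level (log2 -0.46, SE 0.05, adjusted p = 8.55e-06). Aldh4a1 oxidises the proline intermediate pyrroline-5-carboxylate, which Aldh18a1 makes on the way to proline. Aldh4a1 had 78.7, 76.1 and 85.3 CPM with 3D-EVs, 82.8, 93.0 and 80.9 with 2D-EVs, 82.4, 83.4 and 81.4 with TGF-beta1 and 92.0, 94.2 and 98.2 in control cells, lower in TGF-beta1 cells without overlap (log2 -0.20, SE 0.05, adjusted p = 0.0125). Aldh18a1 had 109.5, 113 and 104 CPM with 3D-EVs, 101, 109 and 114 with 2D-EVs, 106, 109 and 111 with TGF-beta1 and 95.2, 102 and 93.5 in control cells, higher in TGF-beta1 cells without overlap (log2 0.17, SE 0.05, adjusted p = 0.0205). Both differences were small beside the level. Adjusted p for Aldh4a1 was 0.0561 without control library 3, within 0.00259 to 0.0561 over the alternatives. For Aldh18a1 it was 0.0733, 0.0861, 0.0568 and 0.073 without control library 1 or 3 or TGF-beta1 library 2 or 3, within 0.00596 to 0.0861. Aldh7a1, of lysine breakdown, had 145, 140.3 and 137 CPM with 3D-EVs, 141, 141 and 154 with 2D-EVs, 138, 141 and 141 with TGF-beta1 and 158, 151 and 151 in control cells. Its log2 change with TGF-beta1 was -0.13 (SE 0.04, adjusted p = 0.0263), and adjusted p was 0.121, 0.0883, 0.061 and 0.057 without control library 1 or TGF-beta1 library 1, 2 or 3, within 0.015 to 0.121. Aldh9a1, of carnitine synthesis, had 192, 193 and 199.7 CPM in TGF-beta1 cells and 210.2, 202 and 198 in control cells, which overlapped (adjusted p = 0.227).

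The vesicle groups were also set against control cells. Comparisons with control share its 3 libraries, so their values are given side by side and not as separate evidence. With 3D-EVs, 6 members were higher and 16 lower than in control cells, together 40.7% of the 54, against 23% of all genes tested in that comparison (12.2% higher and 10.8% lower). With 2D-EVs, 3 were higher and 12 lower, together 27.8%, against 18.6% of all genes (10.5% higher and 8.13% lower). Libraries did not overlap with control for 24 members with 3D-EVs, against 38% of all genes, and for 21 with 2D-EVs, against 33.2%. Unadjusted p was under 0.05 for 23 members with 3D-EVs, against 34% of all genes, and for 21 with 2D-EVs, against 30%. Sult1a1 stood at log2 -2.23 (SE 0.18) with 3D-EVs, -1.74 (SE 0.17) with 2D-EVs and -2.47 (SE 0.18) with TGF-beta1 alone, each relative to control. The corresponding values of Aldh3a1 were -1.88 (SE 0.16), -1.64 (SE 0.16) and -2.03 (SE 0.16), and those of Mgst1 were -0.83 (SE 0.09), -0.78 (SE 0.09) and -1.13 (SE 0.09). For these 3 genes every treated group passed the test against control. Aldh1l1 did not pass with 3D-EVs (log2 -0.35, adjusted p = 0.311) or with 2D-EVs (log2 -0.32, adjusted p = 0.404). Cyp4f5 did not pass with 3D-EVs (log2 -0.03, adjusted p = 0.947) or with 2D-EVs (log2 -0.39, adjusted p = 0.24). Passing in one comparison and not in another does not show a difference between the groups, which was tested directly.

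Gstm3 and Mgst2 passed against control with 3D-EVs alone. Gstm3, the mu-class neighbour of Gstm2, had 105, 119 and 109.9 CPM with 3D-EVs, 104, 92.3 and 105 with 2D-EVs, 105, 96.9 and 97.3 with TGF-beta1 and 97.8, 92.5 and 91.7 in control cells. The 3D-EV libraries lay above every library of the other groups. Over control the log2 change was 0.24 (SE 0.06, adjusted p = 0.00499) with 3D-EVs and 0.09 (SE 0.06, adjusted p = 0.281) with 2D-EVs. Mgst2, which can make leukotriene C4, had 32.8, 39.5 and 35.6 CPM with 3D-EVs, 31.6, 32.8 and 33.1 with 2D-EVs, 37.5, 33.1 and 32.3 with TGF-beta1 and 30.7, 31.7 and 28.4 in control cells. Over control its log2 change was 0.25 (SE 0.08, adjusted p = 0.0264) with 3D-EVs and 0.10 (SE 0.08, adjusted p = 0.4) with 2D-EVs. Without control library 1 or 3 or 3D-EV library 2 or 3, the adjusted p for Mgst2 with 3D-EVs was 0.0551, 0.112, 0.136 and 0.0564, within 0.00787 to 0.136 over the alternatives.

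**Figure D3:**
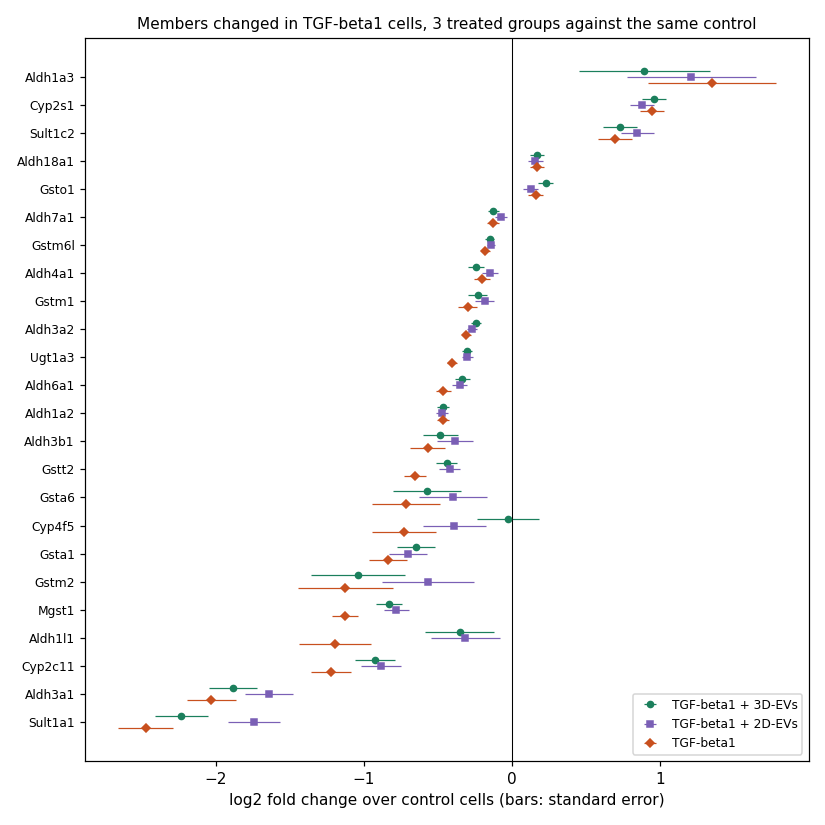
Log2 fold change over control cells (bars: standard error) of the 24 members changed in TGF-beta1 cells, for TGF-beta1 + 3D-EV, TGF-beta1 + 2D-EV and TGF-beta1 cells against the same 3 control libraries. The markers of the 3 groups lie close together for most genes and apart for Cyp4f5, Aldh1l1 and Sult1a1, where TGF-beta1 alone is lowest.

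Both vesicle groups were set against TGF-beta1 cells, and these comparisons share the 3 TGF-beta1 libraries. Vesicles and time in culture cannot be told apart in them. With 3D-EVs, edgeR called 0 of the 54 members, against 0% of all genes, and DESeq2 and limma-voom also called 0 members. At an unadjusted p under 0.05 there were 10 members (18.5%), against 7.24% of all genes. Libraries did not overlap for 12 members (22.2%), against 13.6% of all genes. The log2 change was above 0 for 45 members and below 0 for 9, with a median of 0.09 against -0.0002 over all genes. With 2D-EVs, edgeR, DESeq2 and limma-voom each called 0 of the 54, against 0.0282% of all genes with edgeR. Unadjusted p was under 0.05 for 10 members (18.5%), against 7.1% of all genes, and libraries did not overlap for 8 (14.8%), against 12.4%. The log2 change was above 0 for 36 members and below 0 for 18, with a median of 0.09 against 0.0014 over all genes. The unadjusted shares stood above the background, while no single member held after adjustment. Because both comparisons use the same TGF-beta1 libraries, a low TGF-beta1 value raises both at once. The same libraries also served to call genes lower than in control cells, so changes of those genes lean upward here.

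Among the members with an unadjusted p under 0.05, Mgst1 was 1.23 times its TGF-beta1 level with 3D-EVs (log2 0.30, 95% interval 0.11 to 0.49, adjusted p = 0.526). With 2D-EVs it was 1.27 times (log2 0.35, interval 0.16 to 0.54, adjusted p = 0.265), the smallest p of a member in either comparison. Aldh1l1 was 1.79 times its TGF-beta1 level with 3D-EVs (log2 0.84, interval 0.31 to 1.36, adjusted p = 0.525) and 1.84 times with 2D-EVs (log2 0.88, interval 0.35 to 1.40, adjusted p = 0.371). Libraries of both genes stood above TGF-beta1 without overlap, in 6 of 6 vesicle libraries. Gstt2 gave log2 0.21 (0.06 to 0.37) with 3D-EVs and 0.23 (0.08 to 0.39) with 2D-EVs, with adjusted p = 0.597 and 0.415. For Ugt1a3 the values were 0.10 (0.02 to 0.18) with 3D-EVs and 0.10 (0.03 to 0.18) with 2D-EVs, with adjusted p = 0.597 and 0.499. For Gsta4 they were 0.12 (0.02 to 0.21) and 0.13 (0.04 to 0.22) in the same order, with adjusted p = 0.601 and 0.476. These 3 genes also lay above TGF-beta1 in all 6 vesicle libraries. Aldh6a1 and Cyp2c11 were also higher at an unadjusted p under 0.05 in both comparisons. Libraries overlapped for Cyp2c11 in both and for Aldh6a1 with 2D-EVs alone. With 3D-EVs the lowest Aldh6a1 library had 47.75 CPM, just above the highest TGF-beta1 library at 47.70 CPM. The lowest 2D-EV library of Aldh6a1 had 46.6 CPM, against 47.7 in the highest TGF-beta1 library. For Cyp2c11 the lowest were 4.21 with 3D-EVs and 4.28 with 2D-EVs, against 4.40. With 3D-EVs alone, Gstm3 and Aldh9a1 were also higher at an unadjusted p under 0.05, without overlap. Neither had passed in TGF-beta1 against control cells. Over the alternatives the log2 change of Gstm3 was 0.11 to 0.20 (adjusted p 0.41 to 0.861) and that of Aldh9a1 0.07 to 0.12 (adjusted p 0.501 to 0.85). The sparse row Gstm3l went the other way with 2D-EVs (log2 -4.41). The intervals are not adjusted for the number of genes.

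For Sult1a1, Cyp4f5 and Aldh3a1 the values with 3D-EVs and with 2D-EVs stood further apart. Sult1a1 was at log2 0.24 (-0.18 to 0.67, adjusted p = 0.844) with 3D-EVs and 0.73 (0.32 to 1.15, adjusted p = 0.311) with 2D-EVs, relative to TGF-beta1 cells. Cyp4f5 was at 0.70 (0.25 to 1.16, adjusted p = 0.552) with 3D-EVs and 0.34 (-0.13 to 0.81, adjusted p = 0.81) with 2D-EVs. Aldh3a1 was at 0.15 (-0.22 to 0.51) with 3D-EVs and 0.39 (0.02 to 0.75) with 2D-EVs, where 1 library of 7.35 CPM set the higher mean. Cyp2s1, higher in TGF-beta1 than in control cells, was at 0.01 (-0.15 to 0.18) with 3D-EVs and -0.07 (-0.24 to 0.10) with 2D-EVs. Aldh1a2, lower in TGF-beta1 than in control cells, was at 0.00 (-0.09 to 0.09) with 3D-EVs and -0.01 (-0.09 to 0.08) with 2D-EVs. Both intervals of Aldh1a2 were narrow beside its fall with TGF-beta1 of -0.47 on the same scale.

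**Figure D4:**
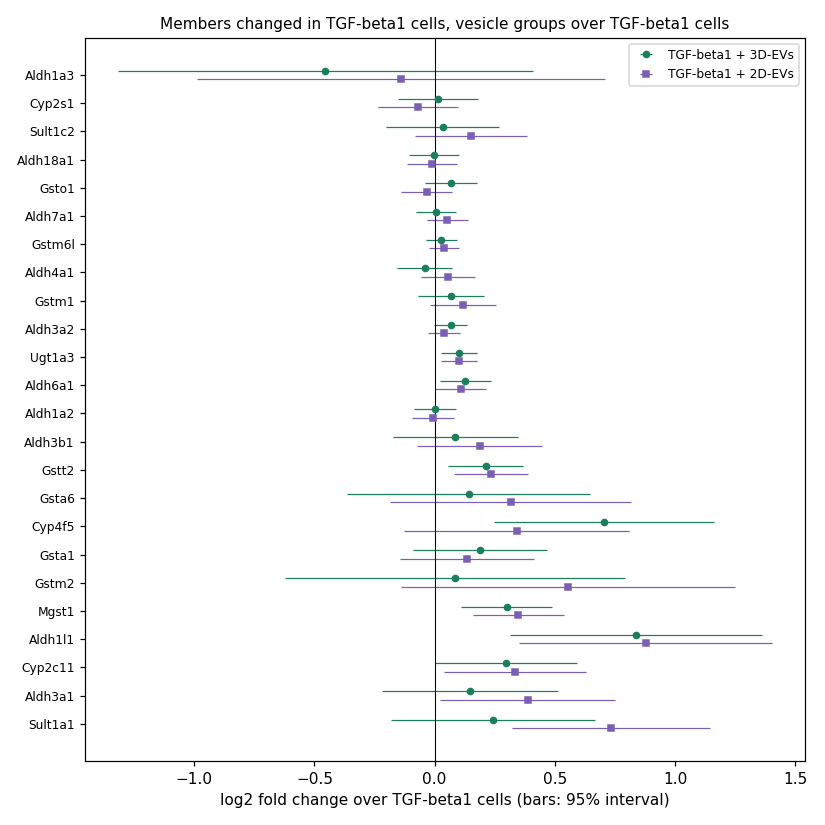
Log2 fold change over TGF-beta1 cells with 95% intervals, for TGF-beta1 + 3D-EV (circles) and TGF-beta1 + 2D-EV cells (squares), of the 24 members changed in TGF-beta1 cells. These members were picked with the same TGF-beta1 libraries that serve as the reference here. None passed adjustment. The intervals of Mgst1, Aldh1l1, Gstt2, Ugt1a3, Aldh6a1 and Cyp2c11 lie above 0 in both groups, and those of Aldh1a2 and Cyp2s1 span 0.

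The 2 preparations were also set against each other. In TGF-beta1 + 3D-EV against TGF-beta1 + 2D-EV cells, edgeR, DESeq2 and limma-voom called 0 of the 54 members, against 0.00705% of all genes with edgeR. Unadjusted p was under 0.05 for 4 members (7.41%), against 6.9% of all genes, and libraries did not overlap for 5 (9.26%), against 11.4%, so both shares were near the background. Sult1a1 was lower with 3D-EVs than with 2D-EVs in every library (log2 -0.49, 95% interval -0.90 to -0.09, adjusted p = 0.648). Aldh9a1 had 202, 208 and 215 CPM with 3D-EVs and 195, 189 and 191 with 2D-EVs (log2 0.12, interval 0.05 to 0.19, adjusted p = 0.598). Gstm3 was at log2 0.15 (0.03 to 0.27, adjusted p = 0.619), and the fourth was the sparse row Gstm3l. Cyp4f5, above 2D-EV cells in every 3D-EV library, was at 0.36 (-0.09 to 0.81, adjusted p = 0.797). For well-counted members the intervals were narrow: that of Ugt1a3 ran from -0.08 to 0.07 and that of Aldh3a2 from -0.04 to 0.09 on the log2 scale. For sparse ones they were wide, as for Gstm2 (-1.16 to 0.22) on the same scale.

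The genes around these enzymes were followed with lists of their regulators, partners and transporters. Of 15 tested xenobiotic sensors and partners, 1 rose and 1 fell in TGF-beta1 against control cells, where 11.8% of all genes tested were higher and 10.2% lower. Over all 6 lists 30 of 84 tested genes changed, or 35.7%, against 22% of all genes. Nfe2l2 (NRF2), which switches on glutathione genes, had 226, 233 and 241 CPM in TGF-beta1 cells and 263, 269 and 265 in control cells (log2 -0.19, SE 0.03, adjusted p = 0.000385). Mafg, its small Maf partner, had 95.2, 94.0 and 94.7 CPM in TGF-beta1 cells and 81.8, 78.3 and 84.5 in control cells (log2 0.21, SE 0.04, adjusted p = 0.000592). Neither pair of groups overlapped. Ahr, the aryl hydrocarbon receptor, averaged 120.1 ± 0.720 CPM in TGF-beta1 cells and 111 ± 6.10 in control cells and just missed (adjusted p = 0.0505). Nr1i3 (CAR), a drug-sensing nuclear receptor, had 13.7, 12.7 and 12.8 CPM in TGF-beta1 cells but 13.4, 4.20 and 0.252 in control cells, so its control libraries disagreed among themselves and it did not pass.

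Of 23 tested electron donors and other phase I enzymes, 9 fell and 1 rose with TGF-beta1, and the median log2 change was -0.14, against -0.005 over all genes, of which 10.2% were lower and 11.8% higher. Ephx1, the microsomal epoxide hydrolase, had 77.9, 77.9 and 87.0 CPM with 3D-EVs, 86.8, 81.6 and 73.4 with 2D-EVs, 66.3, 69.2 and 75.3 with TGF-beta1 and 132, 129 and 128 in control cells, and TGF-beta1 cells held 0.542 times the control level (adjusted p = 1.31e-07). Fmo4, a flavin monooxygenase, averaged 10.5 ± 0.351 CPM in TGF-beta1 cells and 15.2 ± 0.716 in control cells (adjusted p = 0.000141). Maoa, which oxidises monoamines, averaged 45.6 ± 1.46 CPM in TGF-beta1 cells and 55.7 ± 2.66 in control cells (adjusted p = 0.00171). The rise was that of Akr1a1, an aldehyde reductase, at 716 ± 15.4 CPM in TGF-beta1 cells and 667 ± 15.5 in control cells (adjusted p = 0.0153). Por, the reductase that feeds electrons to all microsomal P450s, stood at 173 ± 3.67 CPM in TGF-beta1 cells and 179 ± 3.67 in control cells and did not pass (adjusted p = 0.34).

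Of 17 tested genes of cofactor supply and other conjugation, 4 fell and 3 rose with TGF-beta1, with a median log2 change of -0.03. Of all genes tested, 10.2% were lower and 11.8% higher, with a median of -0.005. Gclc, the catalytic subunit of the first step of glutathione synthesis, had 141, 133 and 134 CPM in TGF-beta1 cells and 168, 173 and 165 in control cells (log2 -0.31, adjusted p = 0.000491). Gstcd, a gene with a glutathione transferase domain, had 10.9, 10.5 and 10.8 CPM in TGF-beta1 cells and 14.9, 14.1 and 14.3 in control cells (log2 -0.43, adjusted p = 0.00201). Gss, the second enzyme of glutathione synthesis, rose to 41.2 ± 1.11 CPM in TGF-beta1 cells, against 35.5 ± 0.858 CPM in control cells (adjusted p = 0.00779). Of 8 tested efflux transporters, Abcg2 and Slc47a1 rose and Abcc3 fell, with a median of -0.04, beside the same shares of all genes. Slc47a1, an exporter of organic cations, averaged 2.32 ± 0.329 CPM in TGF-beta1 cells and 1.10 ± 0.260 in control cells (adjusted p = 0.0123). Abcg2, a pump for sulfate conjugates and drugs, had 39.2, 40.5 and 39.0 CPM in TGF-beta1 cells and 26.7, 26.7 and 24.5 in control cells (log2 0.61, adjusted p = 1.74e-05). Abcc3, a pump for glucuronides, had 16.8, 15.5 and 14.9 CPM in TGF-beta1 cells and 20.1, 22.8 and 20.9 in control cells (log2 -0.43, adjusted p = 0.00108).

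Of 15 tested genes of retinoid handling other than the Aldh genes, 3 rose and 3 fell with TGF-beta1, with a median log2 change of 0.09. Among all genes tested, 11.8% were higher and 10.2% lower, with a median of -0.005. Rdh16, a retinol dehydrogenase, had 18.2, 17.3 and 18.2 CPM with 3D-EVs, 15.7, 19.9 and 16.8 with 2D-EVs, 21.0, 20.6 and 22.5 with TGF-beta1 and 4.97, 5.69 and 5.40 in control cells. All 9 treated libraries were far above control, and TGF-beta1 cells held 3.99 times its level (log2 2.00, SE 0.09, adjusted p = 2.22e-09). Rdh11, a retinal reductase, averaged 42.8 ± 0.971 CPM in TGF-beta1 cells and 32.0 ± 3.29 in control cells (adjusted p = 0.000357). Dhrs3, which returns retinal to retinol, fell to 42.7 ± 1.13 CPM in TGF-beta1 cells, against 62.7 ± 6.56 CPM in control cells (adjusted p = 8.83e-05). Cyp26b1, a P450 that degrades retinoic acid, rose to 3.71 ± 0.123 CPM in TGF-beta1 cells, against 2.28 ± 0.473 CPM in control cells (adjusted p = 0.0101). 

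Of 7 tested P450 genes outside the symbol rule, Cyp51 and the same Cyp26b1 rose and Cyp39a1 fell with TGF-beta1, with a median of 0.15. Over all genes tested in that comparison, 11.8% were higher and 10.2% lower, with a median of -0.005. Cyp51, of cholesterol synthesis, had 689.8, 687 and 674 CPM in TGF-beta1 cells and 541, 531 and 505 in control cells (log2 0.38, adjusted p = 1.19e-05). Cyp39a1, an oxysterol hydroxylase, had 2.10, 2.33 and 1.35 CPM in TGF-beta1 cells and 3.24, 2.66 and 3.44 in control cells (log2 -0.69, adjusted p = 0.0259). Against TGF-beta1 cells, edgeR called 0 of the 84 tested genes of these 6 lists with 3D-EVs and 0 with 2D-EVs, and unadjusted p was under 0.05 for 5 (5.95%) of them with 3D-EVs, against 7.24% of all genes, and 9 (10.7%) with 2D-EVs, against 7.1%. The median log2 change of the phase I list was 0.06 with 3D-EVs and 0.08 with 2D-EVs, against -0.0002 and 0.0014 over all genes.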

How the data were processed

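Per the labels' protocols, TRIzol-extracted, DNase-treated RNA was made into libraries with Hieff reagents of Yeasen. The submitters' processing notes name fastp, HISAT2, StringTie and DESeq2 and the rat build mRatBN7.2; the sources used here give no versions, strand handling or annotation release. The deposited table holds raw counts (24660 rows, 12 libraries), and the 12 single-library tables were identical to it. Counts of 1 filled 1514 cells and counts of 2 filled 5687, so low counts are not simply single reads, and floors cover counting error only. Without stated strand handling, reads of a gene and of an antisense or overlapping gene cannot be told apart.

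The analysis used edgeR 4.0.16 in R 4.3.3. filterByExpr (groups, minimum count 10) kept 14184 genes, and 1 fit of 4 group means with TMM factors gave 6 contrasts by the quasi-likelihood F-test. Adjustment was by Benjamini-Hochberg over all tested genes, with a threshold of 0.05. Standard errors are the log2 change divided by the root of F. limma 3.58.1 and DESeq2 1.42.0 served as alternatives, and the script was tested on simulated data. Within groups, the chi-square per degree of freedom between libraries was 6.66 to 10.6 over 12 pairs. Named genes were, per comparison, up to 10 members higher and 10 lower with the smallest p, the 3 most counted per family, and others close to the threshold; pathway genes were up to 4 per list. Gstm3l, Nr1i3, Por, Gss, Ahr and further members were named after their values were seen. Members, lists and rules were chosen with earlier results of these data known. Of the 115 symbols, 113 matched RefSeq (GRCr8), and 96 had a promoter entry. A gene of the pathway lists is not reported here.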

Additional observations from a re-analysis of the deposited data

How the results depend on the processing

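Of 61 calls of single members in the 3 comparisons with control, 46 held under every alternative run: other size factors, other filters, DESeq2, limma-voom, fits of 2 groups, a replicate block and fits without 1 library. Over these, 792 of 853 values kept the direction and the side of the threshold, 61 lost the call, and 0 changed direction. Uncalled members were followed in 40 results only: those with unadjusted p under 0.05 and, in TGF-beta1 against control, the 3 most counted per family. Of their 552 values, 10 passed the threshold, 3 in TGF-beta1 and 7 in TGF-beta1 + 2D-EV cells, each against control. The sign changed in 4, all in TGF-beta1 against control cells. Members with larger p were followed in that comparison alone. Where the sign changes lie therefore follows from this choice. Over all 14 alternatives, the log2 change of Cyp4f39 ran from -0.0713 to 0.0024, that of Gstp1 from -0.0468 to 0.0143 and that of Sult2b1 from -0.137 to 0.176. The values above 0 that changed sign came from fits without 1 library. They were 0.0024 for Cyp4f39 without TGF-beta1 replicate 1 and 0.0143 for Gstp1 without control replicate 1. For Sult2b1 they were 0.127 without control replicate 2 and 0.176 without TGF-beta1 replicate 3. The number of members higher with TGF-beta1, 5, was 2 to 4 in fits without 1 library, and the number lower, 19, was 16 to 18. With 3D-EVs against control these ranges were 4 to 7 and 13 to 16, and with 2D-EVs 2 to 3 and 11 to 13.

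Same-numbered libraries of different groups did not deviate together: residuals of 18 pairs correlated by -0.098 to 0.089, and the best partner of 4 of 12 libraries was one of the same number. With a replicate block, 4 members were higher and 18 lower with TGF-beta1, 6 and 15 with 3D-EVs and 3 and 11 with 2D-EVs, each against control. Over all genes, DESeq2 called 13 in 3D-EV, against 0 with edgeR, and 56 in 2D-EV, against 4, each relative to TGF-beta1 cells. It called 21 between the vesicle groups, against 1. Without a filter the 2D-EV count was 14 and that between the vesicle groups 8; limma-voom gave 9 and 2, and fits of 2 groups 7 and 2. The cause was not tested. No member was among these calls, and of the 14 tested members below 1 CPM, only Aldh1a3, higher with TGF-beta1, was among the 61 calls.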
